A study of Homo sapiens with 12 samples.

Results

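Expression of 9 genes of ferritin and iron handling was described in HOS, a human osteosarcoma cell line, in cells labelled as overexpressing the adaptor protein CIN85 or depleted of it by siRNA. The members were FTH1, FTL, TFRC, HMOX1, NCOA4, SLC40A1, SLC11A2, IREB2 and ACO1, and all 9 listed symbols were found among the 25141 gene rows of the count table. The group was chosen by the FTH1 fold changes in these libraries, which lay in opposite directions in upCIN85 and siCIN85, so FTH1 values are given without a test. The remaining 8 genes were listed by their known roles in iron biology, with earlier results of these data known.

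The RNA-seq data covered 12 libraries in 4 groups of 3. Cells of the upCIN85 group carried a plasmid for full-length CIN85 and were selected for it, and Mock cells carried the empty vector. For siCIN85, several siRNAs against CIN85 were transfected together, and for siNeg a non-targeting siRNA. No other genetic change or treatment is named in the labels, and upCIN85 is 1 pool of antibiotic-resistant cells rather than a set of clones. The kit reads the 3′ end of each mRNA, so counts follow transcript number and were not divided by gene length. Values are given in CPM (counts relative to library size, scaled with TMM factors) as mean ± SD with n = 3, and log2FC values with their SE come from a single edgeR quasi-likelihood fit of 12542 genes. The methods of the study call its replicates biological in general, and the labels do not say whether same-group libraries came from separate cultures, so P-values measure the spread between these libraries, which may in part be technical.

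Total counts lay between 3540641 and 6049458 per library, and the siNeg and siCIN85 libraries were shallower than all Mock and upCIN85 libraries. SH3KBP1, the gene of CIN85, was at 77.5 ± 5.0 CPM in Mock and 81.3 ± 9.61 CPM in the libraries labelled upCIN85 (log2FC 0.07, SE 0.16, adjusted P = 0.887 in edgeR), so the counts on this gene did not show the labelled overexpression. The kit reads the 3′ end of the native mRNA, and whether a transcript from the plasmid carries that end was not tested, so this value does not check the label. The name upCIN85 stands throughout for the libraries so labelled. It was at 85.1 ± 2.37 CPM in siNeg and fell to 7.54 ± 3.19 CPM in siCIN85 (log2FC -3.51, SE 0.21, adjusted P = 5.09e-08). The mesenchymal markers COL1A1, SPARC and VIM were at 337 CPM or more in every library. Of the other 3 markers of this lineage, COL1A2 lay between 18.4 and 214 CPM and RUNX2, the osteoblast transcription factor, between 7.06 and 39.1 CPM, and ALPL, the alkaline phosphatase of bone, had at most 23 counts in a library. Of the 14 markers of macrophages, erythroid cells and hepatocytes, which handle much of the iron of the body, 11 had a row in the table, and EPOR, the erythropoietin receptor, was the highest with at most 32 counts in a library.

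Ferritin is a hollow shell of heavy chains, which oxidise iron, and light chains, which help it to mineralise inside. Cells take up iron through the transferrin receptor, release it through ferroportin and recover it from ferritin by autophagy. Iron regulatory proteins bind a stem-loop, the iron-responsive element, in mRNAs of this system. In iron-poor cells they block translation of ferritin and ferroportin through elements in the 5′ UTR and stabilise the TFRC mRNA through elements in the 3′ UTR. The level of ferritin mRNA and the amount of ferritin protein can therefore differ, and only mRNA was measured here.

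GENCODE release 29 transcripts (GRCh38) were searched for the core of this element. The search asked for an unpaired C, 5 bases, the loop CAGTGN and 5 bases that pair with the first 5, counting G with T as a pair. Both ferritin chains had 1 match in the 5′ UTR, at chr11:61967574-61967602 (minus strand) in FTH1 and at chr19:48965335-48965363 (plus strand) in FTL. SLC40A1 had 1 match in the 5′ UTR, at chr2:189580661-189580689 (minus strand). TFRC had 4 matches in the 3′ UTR, and the outermost, at chr3:196050979-196051007 and chr3:196050463-196050491 (minus strand), are shown. The capitals mark the loop in the sequences below, all in the direction of the mRNA.
FTH1: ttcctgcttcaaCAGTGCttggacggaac
FTL: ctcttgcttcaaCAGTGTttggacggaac
SLC40A1: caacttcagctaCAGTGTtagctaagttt
TFRC, first: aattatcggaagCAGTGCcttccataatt
TFRC, last: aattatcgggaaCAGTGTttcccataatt
No match with these letters was found in the UTRs of the other 5 members. The pattern is strict, and EPAS1 and CDC42BPA, listed below as known carriers, had no match either. A missing match therefore does not show that a member lacks the element. Of 19684 protein-coding genes searched, 0.183% had a match in a 5′ UTR and 0.671% in a 3′ UTR.

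FTH1 (ENSG00000167996, chromosome 11 from 61959718 to 61967660) encodes the ferritin heavy chain. Its Mock libraries measured 375, 308 and 338 CPM, and its upCIN85 libraries 601, 572 and 695 CPM. Every upCIN85 library lay above every Mock library, with means of 623 ± 64.1 and 340 ± 33.6 CPM and a log2FC of 0.87 (SE 0.13), a 1.83-fold level. The siNeg libraries measured 426, 357 and 419 CPM, and the siCIN85 libraries 253, 280 and 372 CPM. The siCIN85 mean of 302 ± 62.4 CPM was below the siNeg mean of 401 ± 37.9 CPM (log2FC -0.41, SE 0.13), but siCIN85 replicate 3 lay above siNeg replicate 2, so these groups overlapped. By mean level the order was upCIN85, siNeg, Mock and siCIN85. The ranges of siNeg and Mock overlapped, as did those of Mock and siCIN85, and upCIN85 alone stood clear of its neighbour. These values describe the pattern for which the gene was chosen. With 1 library left out at a time the log2FC stayed between 0.78 and 0.95 in upCIN85, and between -0.60 and -0.30 in siCIN85.

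FTH1 has many processed pseudogenes with nearly the same sequence, and its exons share 1267 bases with BEST1 on the opposite strand. The table listed 8 rows of FTH1 pseudogenes and 3 rows of FTL pseudogenes, none with more than 3 counts in a library, and BEST1 had at most 2. How reads that match several copies were counted is not given in the sources used here.

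**Figure D1:**
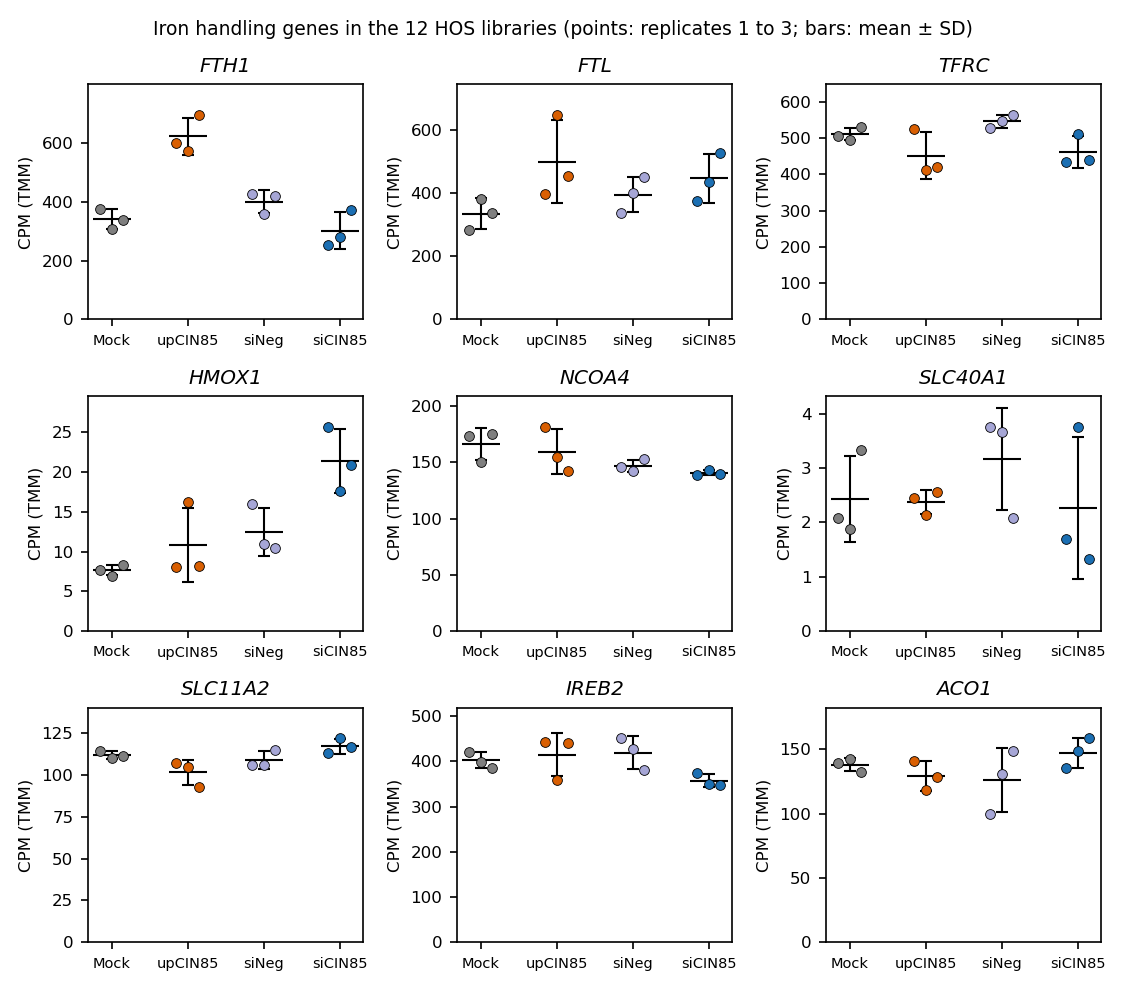
TMM-scaled CPM (linear axis from 0) of the 9 iron handling genes in the 12 libraries, with points for replicates 1 to 3 and a bar for mean ± SD of each group. FTH1 is highest in the 3 upCIN85 libraries (572 to 695 CPM), whereas FTL and HMOX1 reach their upCIN85 maximum in replicate 2 alone.

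FTL (ENSG00000087086, chromosome 19 from 48965301 to 48966878) encodes the light chain. Its Mock libraries measured 283, 381 and 337 CPM, and its upCIN85 libraries 398, 646 and 452 CPM. The upCIN85 libraries all lay above the Mock libraries, at 499 ± 131 against 334 ± 49.2 CPM. Of all tested genes, 9.74% were higher without overlap in this way. The log2FC was 0.58 (SE 0.17, 95% confidence interval 0.22 to 0.93), and edgeR's adjusted P of 0.0924 missed the threshold of 0.05. DESeq2 on all 12 libraries gave an adjusted P of 0.0448, and over all alternatives it ranged from 6.16e-05 to 0.278. The lead rested in part on upCIN85 replicate 2, without which the log2FC was 0.35 (adjusted P = 0.278).

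After knockdown the FTL estimate was about as large as its SE. The siNeg libraries measured 336, 400 and 449 CPM, and the siCIN85 libraries 375, 435 and 528 CPM. The means were 395 ± 56.8 CPM in siNeg and 446 ± 76.7 CPM in siCIN85, and the groups overlapped. The log2FC of 0.17 (SE 0.17, adjusted P = 0.659) had a 95% confidence interval from -0.18 to 0.53, and it lay between 0.03 without siCIN85 replicate 3 and 0.28 without siCIN85 replicate 1. The FTL estimates in upCIN85 and siCIN85 differed by 0.40 on the log2 scale (SE 0.24), which did not pass the test of the difference (adjusted P = 0.467). None of the 8 members other than FTH1 passed that test in edgeR, with 0.973% of all tested genes called. An unadjusted P below 0.05 was found for 0 of the 8, beside 14.5% of all tested genes. For FTH1 the same quantity was 1.28 (SE 0.19), given without a test.

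The ratio of FTH1 counts to FTL counts within a library needs no scaling between libraries. It was 0.674, 0.644 and 0.705 in the siCIN85 libraries, below the 9 other libraries, whose lowest value was 0.807 in Mock replicate 2. In siNeg it was 1.27, 0.894 and 0.933. In upCIN85 it was 1.51, 0.886 and 1.54, and in Mock 1.32, 0.807 and 1.00, so these groups overlapped through upCIN85 replicate 2. Since FTH1 is part of the ratio, it is a description as well.

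**Figure D2:**
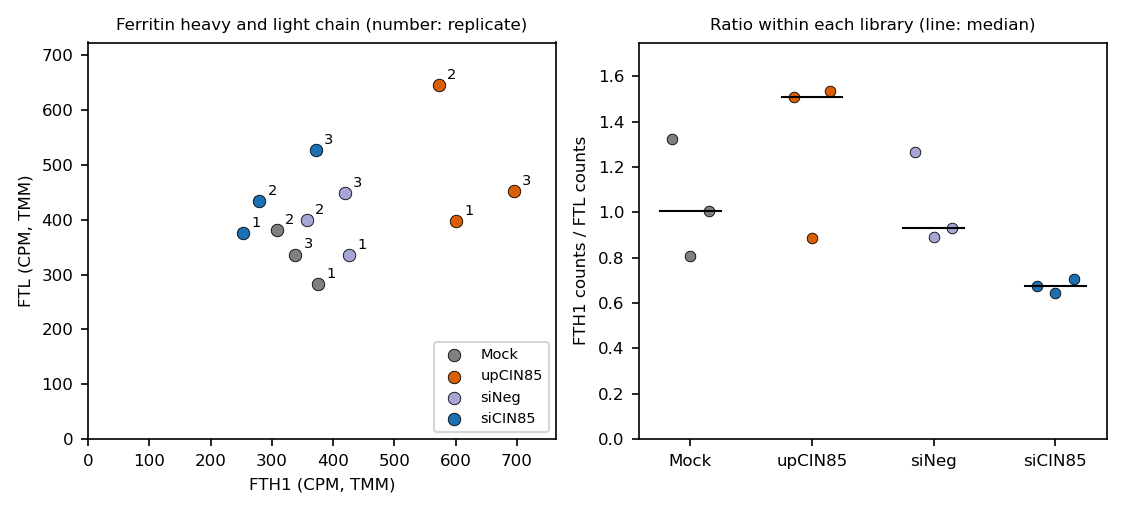
Left, FTL against FTH1 in TMM-scaled CPM for the 12 libraries, numbered by replicate; right, the ratio of FTH1 to FTL counts in each library with the group median as a line, both axes linear from 0. The 3 siCIN85 libraries have the lowest ratios (0.644 to 0.705), and upCIN85 replicate 2 is high in both chains with a ratio of 0.886.

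Of the 8 members other than FTH1, none passed an adjusted P of 0.05 in edgeR in either comparison. In upCIN85 versus Mock, 1 of them had an unadjusted P below 0.05 (FTL), and edgeR called 1.23% of all tested genes. DESeq2 on all 12 libraries called 1 of them (FTL) among 311 genes in all. In siCIN85 versus siNeg, 3 had an unadjusted P below 0.05 (HMOX1, TFRC and IREB2), and edgeR called 1.04% of all tested genes. DESeq2 on all 12 libraries called 298 genes there and 0 of these members. Of all tested genes, 14.5% in upCIN85 and 15.7% in siCIN85 had an unadjusted P below 0.05. Libraries did not overlap between the groups for 2 of the 8 in upCIN85 (FTL and SLC11A2) and 3 of the 8 in siCIN85 (HMOX1, TFRC and IREB2), beside 20.7% and 20.2% of all tested genes. Their median log2FC was -0.05 in upCIN85 and 0.02 in siCIN85, beside 0.0072 and -0.0052 over all genes tested. With a block for replicate number in both experiments, 1 member passed in each comparison, FTL in upCIN85 (adjusted P = 0.000239) and HMOX1 in siCIN85 (adjusted P = 0.0244). That setting called 1035 and 968 of all tested genes, against 154 and 131 without the block. The main fit used no block. With the block in the siRNA experiment only, HMOX1 did not pass in siCIN85 (adjusted P = 0.0805), and FTL passed in upCIN85 (adjusted P = 0.0256). This setting called 545 genes in upCIN85 and 429 in siCIN85.

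TFRC (ENSG00000072274, chromosome 3 from 196027183 to 196082189) encodes the transferrin receptor, the main route of iron uptake. Its siNeg libraries measured 527, 547 and 564 CPM, and its siCIN85 libraries 433, 513 and 439 CPM. The siCIN85 values all lay under the siNeg values, as for 10.2% of all tested genes. The log2FC of -0.24 (SE 0.10, adjusted P = 0.271 in edgeR) did not pass. In upCIN85 versus Mock it was -0.18 (SE 0.10, adjusted P = 0.465), with 507, 496 and 529 CPM in Mock and 525, 411 and 419 CPM in upCIN85, so replicate 1 of upCIN85 lay among the Mock libraries. TFRC thus had negative estimates in both upCIN85 and siCIN85, and the difference between them was 0.07 (SE 0.15, adjusted P = 0.891).

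SLC11A2 (ENSG00000110911, chromosome 12 from 50979401 to 51028566) encodes DMT1, which moves iron across the endosomal membrane. It measured between 92.6 and 122 CPM in all 12 libraries. Its upCIN85 libraries were all below its Mock libraries, as for 11% of tested genes. The log2FC was -0.14 (SE 0.10, adjusted P = 0.531). In siCIN85 the log2FC was 0.11 (SE 0.10, adjusted P = 0.633), and the 95% confidence intervals allowed at most -0.34 in upCIN85 and 0.31 in siCIN85. SLC40A1 (ENSG00000138449, chromosome 2 from 189560579 to 189583758) encodes ferroportin, the only known iron exporter. It had between 5 and 19 counts per library, and at this depth a change could not be told from none, with intervals from -0.84 to 0.78 in upCIN85 and from -1.41 to 0.38 in siCIN85.

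HMOX1 (ENSG00000100292, chromosome 22 from 35380361 to 35394214) encodes heme oxygenase 1, which frees iron from heme. Its Mock libraries measured 7.71, 6.96 and 8.24 CPM, and its upCIN85 libraries 8.04, 16.2 and 8.16 CPM. Replicate 2 of upCIN85 stood apart from the others, and the log2FC of 0.50 (SE 0.27, adjusted P = 0.414) was 0.09 without it. The siNeg libraries measured 15.99, 11.0 and 10.4 CPM, and the siCIN85 libraries 25.7, 17.6 and 20.9 CPM. Every siCIN85 library was above every siNeg library, as for 9.91% of tested genes. The log2FC of 0.78 (SE 0.26) did not pass, at an adjusted P of 0.149. The siNeg libraries were also above the Mock libraries (log2FC 0.71, SE 0.28, adjusted P = 0.290), as for 9.48% of tested genes. In this comparison of the controls, 0 of the 8 members passed in edgeR, against 0.526% of tested genes called. An unadjusted P below 0.05 was found for 1 of the 8 (HMOX1), beside 12.4% of all tested genes. Transfection, culture and depth cannot be told apart here.

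NCOA4 (ENSG00000266412, chromosome 10 from 46005088 to 46030714) encodes the receptor that delivers ferritin to autophagosomes. Its mean was 166 ± 13.9 CPM in Mock and 160 ± 20.1 CPM in upCIN85. With siRNA it was 147 ± 5.37 CPM for siNeg and 141 ± 2.20 CPM for siCIN85. The log2FC was -0.06 in both comparisons (SE 0.10 and 0.11), with intervals from -0.28 to 0.16 in upCIN85 and from -0.29 to 0.16 in siCIN85.

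ACO1 and IREB2 encode iron regulatory proteins 1 and 2. IREB2 (ENSG00000136381, chromosome 15 from 78437431 to 78501456) measured 451, 426 and 380 CPM in siNeg and 374, 350 and 348 CPM in siCIN85. The groups did not overlap, though siNeg replicate 3 came close to siCIN85 replicate 1, and the log2FC of -0.23 (SE 0.10, adjusted P = 0.278) did not pass. In upCIN85 it was 0.04 (SE 0.10, adjusted P = 0.889). ACO1 (ENSG00000122729, chromosome 9 from 32384603 to 32454769) measured 126 ± 24.8 CPM in siNeg and 147 ± 11.7 CPM in siCIN85 (log2FC 0.22, SE 0.13, adjusted P = 0.409), and 138 ± 5.21 CPM in Mock and 129 ± 11.4 CPM in upCIN85 (log2FC -0.09, SE 0.13, adjusted P = 0.786). The IREB2 estimate in upCIN85 changed sign without upCIN85 replicate 1 or 3 (-0.01 and -0.0057).

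**Figure D3:**
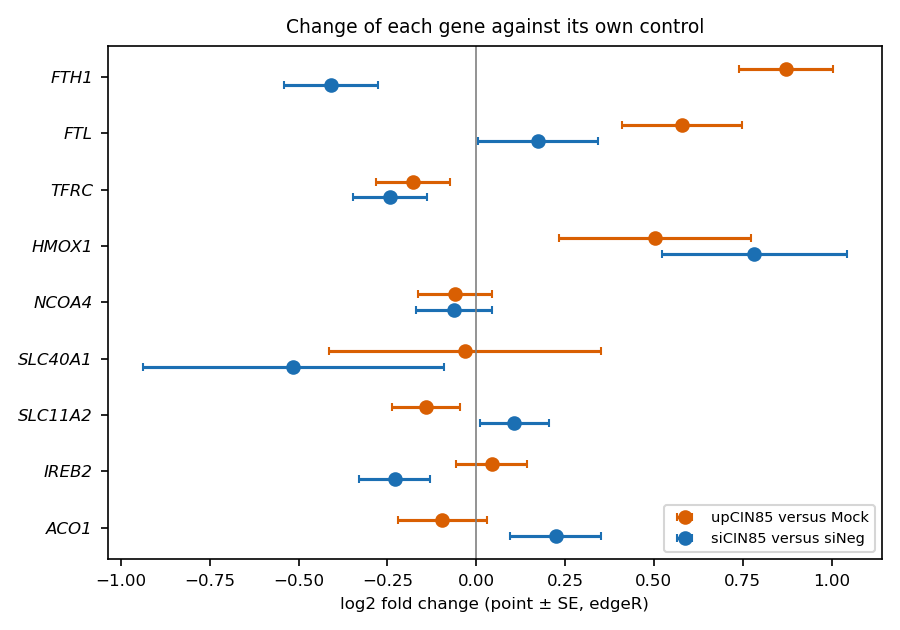
Log2 fold change of each gene against its own control, with bars of 1 SE from the edgeR fit, for upCIN85 versus Mock and siCIN85 versus siNeg. FTH1 lies on opposite sides of 0 (0.87 and -0.41), FTL and HMOX1 are positive in both comparisons, TFRC is negative in both, and the SLC40A1 bars are the widest.

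The 7 other members with a mean of at least 10 CPM lay far from FTH1 in their pattern over the libraries, and SLC40A1 was too low to be ranked. Among 8953 genes with a mean of at least 10 CPM, ranked by Pearson r of log2 CPM with FTH1 over the 12 libraries, FTL was at rank 2336 (r = 0.37), IREB2 at 1805 (r = 0.45), NCOA4 at 2971 (r = 0.27), TFRC at 6172 (r = -0.25), ACO1 at 6519 (r = -0.30), HMOX1 at 6818 (r = -0.36) and SLC11A2 at 8618 (r = -0.75). The genes most like FTH1 were SEPHS1 (r = 0.934), IMPA2, HPS4, RAB12 and PPP3CA (r = 0.922). Each of the 5 had its highest mean in upCIN85 and its lowest in siCIN85. For example, PPP3CA, the catalytic subunit of calcineurin, was at 282 CPM in upCIN85 against 211 CPM in Mock. It was at 158 CPM in siCIN85 against 208 CPM in siNeg. None of the 5 passed in edgeR. Their adjusted P was 0.0718 (RAB12) to 0.128 (HPS4) in upCIN85 and 0.112 (PPP3CA) to 0.655 (RAB12) in siCIN85. The libraries share the 4 groups, and these genes were ranked for the likeness, so r is a description.

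Beyond the members, 6 lists of iron-related genes held 113 genes, of which 91 could be tested. For upCIN85 versus Mock, 47 of the 91 had positive and 44 negative estimates, with 1 called higher and 0 lower by edgeR and 7 at an unadjusted P below 0.05. In siCIN85 versus siNeg, 44 were positive and 47 negative, with 1 called higher, 0 lower and 12 at an unadjusted P below 0.05. The unadjusted counts stand beside 14.5% and 15.7% of all tested genes. Of all tested genes, 0.439% were called higher and 0.789% lower in upCIN85, and 0.59% higher and 0.454% lower in siCIN85.

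Both calls were among the 13 genes of heme synthesis and breakdown. PGRMC1, a heme-binding membrane protein, rose from 260 ± 12.3 CPM in Mock to 390 ± 101 CPM in upCIN85 (log2FC 0.59, SE 0.14, adjusted P = 0.0475). Its upCIN85 libraries measured 421, 277 and 473 CPM, all above Mock. Leaving out any of the 6 libraries other than upCIN85 replicate 2 ended this call, with adjusted P values from 0.0976 without Mock replicate 1 to 0.255 without upCIN85 replicate 3. UROS, the uroporphyrinogen synthase of the heme pathway, rose from 30.6 ± 0.737 CPM in siNeg to 47.0 ± 5.59 CPM in siCIN85 (log2FC 0.62, SE 0.14, adjusted P = 0.0375). Its siCIN85 libraries measured 53.4, 44.5 and 43.0 CPM. It kept its call only without siCIN85 replicate 2, and without another of the 6 libraries the adjusted P was between 0.0618 (siNeg replicate 3) and 0.199 (siCIN85 replicate 1). ALAD, an early enzyme of heme synthesis, had the next smallest P in siCIN85 (log2FC -0.84, adjusted P = 0.364). BLVRB, which reduces biliverdin, had a log2FC of 0.76 (SE 0.24) in upCIN85 and did not pass (adjusted P = 0.130). The list medians were -0.02 in upCIN85 and -0.01 in siCIN85.

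For iron transport and its control, 20 of 33 listed genes were tested, and 0 passed in either comparison (2 and 4 at an unadjusted P below 0.05). FBXL5, which marks IREB2 protein for degradation when iron is plentiful, measured 17.2, 19.3 and 16.9 CPM in siNeg and 11.2, 13.6 and 9.51 CPM in siCIN85. The groups did not overlap, and the log2FC of -0.65 (SE 0.18, adjusted P = 0.0915) did not pass. PCBP4, a relative of the poly(rC)-binding iron chaperones, had negative estimates in upCIN85 (-0.51, SE 0.19, adjusted P = 0.197) and siCIN85 (-0.53, SE 0.20, adjusted P = 0.199). LRP1, a receptor for heme bound to hemopexin, had a log2FC of 0.91 in upCIN85 (SE 0.28, adjusted P = 0.118), with 12.9, 6.70 and 12.4 CPM in upCIN85 and 5.68 ± 0.991 CPM in Mock.

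Of 25 tested genes of iron-sulfur cluster assembly, 0 passed (1 in upCIN85 and 4 in siCIN85 at an unadjusted P below 0.05). NFU1, a late-acting cluster carrier, measured 60.7, 67.9 and 60.4 CPM in siNeg and 43.0, 47.7 and 45.2 CPM in siCIN85 (log2FC -0.48, SE 0.13, adjusted P = 0.0734). NFU1 passed in siCIN85 by DESeq2 on all 12 libraries (adjusted P = 0.0353), a setting that called 298 genes there. It also passed with the replicate block in the siRNA experiment only (edgeR adjusted P = 0.0431) or in both experiments (adjusted P = 0.0104). These settings called 429 and 968 genes in siCIN85. In 13 of 16 alternatives NFU1 did not pass, as in the main fit. HSPA9, the mitochondrial chaperone of the pathway, was at 0.29 in siCIN85 on the log2 scale (SE 0.10, adjusted P = 0.157). In upCIN85 the smallest P values were those of LYRM4 (0.45, adjusted P = 0.315) and GLRX5 (0.21, adjusted P = 0.360), which serve early and late steps of the assembly.

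NRF2 is a transcription factor that induces FTH1, FTL and HMOX1 together with antioxidant genes. Of 24 listed targets beyond these, 18 were tested, 0 passed in either comparison, and 1 in upCIN85 and 0 in siCIN85 had an unadjusted P below 0.05. In upCIN85, 13 were positive and 5 negative with a median log2FC of 0.09, and the smallest P was that of PRDX1, a peroxiredoxin, at 0.28 (SE 0.10, adjusted P = 0.178), followed by AKR1C3, an aldo-keto reductase, at 0.91 (adjusted P = 0.391). In siCIN85, 8 were positive and 10 negative, with a median of -0.0042, and the smallest P values were those of ME1 (-0.25, adjusted P = 0.324) and TXN (-0.23, adjusted P = 0.363). Replicate 2 of upCIN85, in which FTL and HMOX1 were highest, was also the highest upCIN85 library for 11 of these 18 targets, or 61.1%, beside 36.2% of all tested genes, a count made after the values had been seen. Examples are GCLM (90.6, 145 and 89.4 CPM in replicates 1, 2 and 3) and SLC7A11 (198, 342 and 227 CPM). What set this library apart was not tested.

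Among 11 tested genes of ferroptosis control, an iron-dependent form of cell death, 0 passed (0 and 2 at an unadjusted P below 0.05). CISD2, an iron-sulfur protein of the endoplasmic reticulum, had a log2FC of -0.42 in siCIN85 (SE 0.14, adjusted P = 0.157), and SLC3A2, a subunit of the cystine importer, one of 0.33 (adjusted P = 0.311). In upCIN85 the smallest P values were those of CD63, which marks vesicles that carry ferritin out of cells (0.19, adjusted P = 0.384), and AIFM2, which reduces ubiquinone (0.21, adjusted P = 0.638). Among other mRNAs known to carry the element, CDC14A, a phosphatase, had a log2FC of -0.85 in upCIN85 (adjusted P = 0.175), CDC42BPA, a kinase, one of -0.45 in siCIN85 (adjusted P = 0.147), and EPAS1, a hypoxia-inducible factor, one of 0.08 in siCIN85 (adjusted P = 0.857), so none of these passed. Beyond the members, 23 tested genes had a match to the element in a 5′ UTR, with 0 called in either comparison (4 in upCIN85 and 2 in siCIN85 at an unadjusted P below 0.05, beside 14.5% and 15.7% of all tested genes) and medians of 0.0054 in upCIN85 and -0.11 in siCIN85. For 106 tested genes with a match in a 3′ UTR, 2 were called lower and 0 higher in upCIN85 (CBL and SHE, beside 0.789% of all tested genes called lower), and 1 was called higher in siCIN85 (RRAGD, beside 0.59% called higher). At an unadjusted P below 0.05 there were 16 and 18 of the 106, with medians of -0.04 and -0.03. This search was added after the data had been seen.

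**Figure D4:**
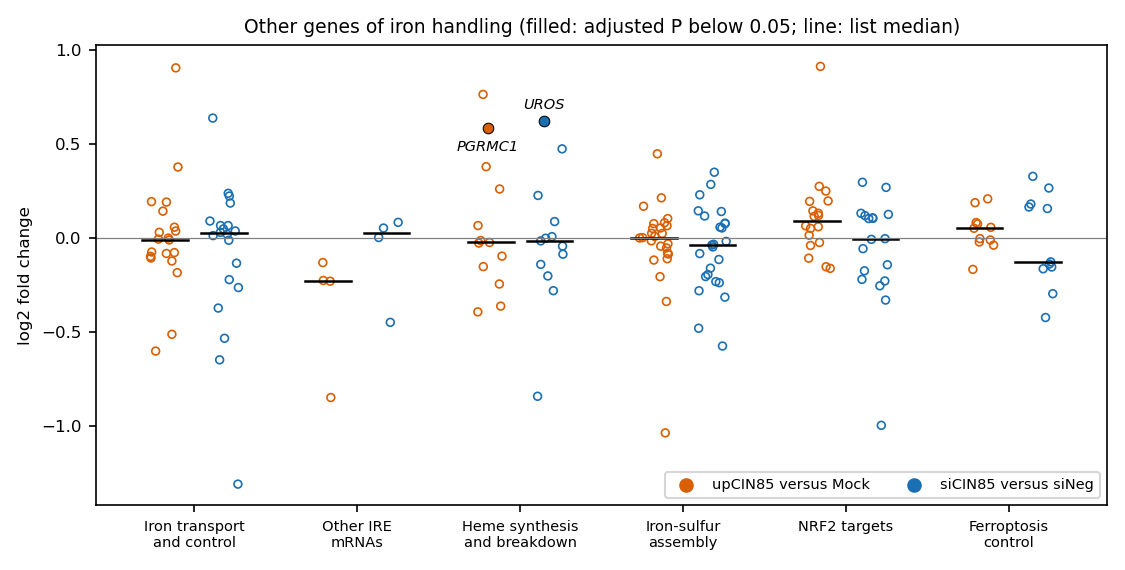
Log2 fold change of the 91 tested genes of 6 iron-related lists in upCIN85 versus Mock and siCIN85 versus siNeg, with filled points for an adjusted P below 0.05 and a line at each list's median. The filled points are PGRMC1 in upCIN85 and UROS in siCIN85, and the list medians lie between -0.23 and 0.09.

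The share of counts on ribosomal protein genes was 6.83% to 7.79% in Mock, 7.17% to 7.39% in upCIN85, 7.77% to 8.58% in siNeg and 7.65% to 8.19% in siCIN85. Mitochondrial genes took 3.52% to 5.38% in Mock and 3.56% to 4.13% in upCIN85, and 4.36% to 7.53% in siNeg and 4.96% to 6.74% in siCIN85. These shares overlapped between each treated group and its control. In RNA from whole cultures, a change in every cell cannot be told from a larger change in some of the cells.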

How the data were processed

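RNA from HOS cells was sequenced with a 3′ end kit carrying molecular identifiers, and the authors deposited 1 table of raw counts per Ensembl gene for the 12 libraries, made with featureCounts. The submitters' processing notes name STAR 2.7.3a, cutadapt 4.3, Subread 2.0 and Picard 2.25.6 with GRCh38. Annotation, strand setting and the handling of molecular identifiers and of reads with several matches are not given in the sources used here, so counts of ferritin genes with near-identical copies are uncertain. Symbols were taken from GENCODE release 29, with 95 IDs unmatched.

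Counts were tested with edgeR 4.0.16 (R 4.3.3) on all 12 libraries with TMM scaling and quasi-likelihood tests, two-sided. Genes passed filterByExpr with a minimum count of 10 and a minimum total of 15, and P-values were Benjamini-Hochberg adjusted over 12542 genes with a threshold of 0.05. SE was taken as |log2FC| over the root of the F statistic. Alternatives were DESeq2 1.42.0, fits without the filter or with a stricter one, other scaling, fits of 6 libraries, a replicate block and leaving out each library. The step was tested on simulated data.

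The members and gene lists were chosen with earlier results of these data known. All members were named, with genes called in the lists and otherwise the 2 with the smallest P in each list and comparison, the 5 genes most like FTH1, and SH3KBP1. GCLM, SLC7A11 and genes called among other carriers of the element were named after their values were seen. Deviations of same-numbered libraries correlated at 0.353, 0.269 and 0.446 in the siRNA experiment and at 0.326, 0.227 and 0.0989 in the overexpression experiment. Libraries with different numbers were not correlated for reference, so pairing was settled in neither experiment. The main fit used no block, and the block was run as an alternative. No libraries were duplicates. Intervals on counts cover counting error and the spread between libraries only. Results for some genes of the lists and of the element search are not reported here.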

Additional observations from a re-analysis of the deposited data

How the results depend on the processing

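The FTH1 estimates kept their signs under every alternative run. FTH1 was chosen for these signs in the same libraries, so this is a description. With the replicate block in both experiments, 1 member other than FTH1 was called in upCIN85 (FTL, log2FC 0.56) and 1 in siCIN85 (HMOX1, 0.78), against 0 without the block. In that fit 1 member was also called between the controls, but the contrast there takes the fitted replicate 1 level of each control. It is therefore not the comparison of group means given above. Without the filter the same counts were 1 (FTL) and 1 (HMOX1) in upCIN85 and siCIN85. In upCIN85, 1 (FTL) was also called with the block in the siRNA experiment only and by DESeq2 on 12 or 6 libraries, and 0 with any library left out. All genes called numbered 154, 131 and 122 in upCIN85, siCIN85 and their difference. They became 637, 617 and 554 without the filter, 1035, 968 and 918 with the block in both experiments, 545, 429 and 368 with it in the siRNA experiment, and 311, 298 and 269 by DESeq2. The fit of 6 libraries gave 281 and 50, and DESeq2 on 6 gave 371 in upCIN85. Leaving out 1 library gave 25 to 260, 9 to 362 and 33 to 341. Of the list genes, 1 was called in each comparison. In upCIN85 this became 3 without the filter, 5 and 2 with the block in both or the siRNA experiment, 0 in the fit of 6 libraries, 0 with TMM lacking ribosomal protein and mitochondrial genes, and 0 to 2 with 1 library left out. In siCIN85 it became 6 and 2 with the block, 0 in the fit of 6 libraries, 2 and 0 by DESeq2 on 12 and 6, and 0 to 3 with 1 library left out. Genes that passed with the block in both experiments but not without it were BLVRB, LRP1, LYRM4 and PCBP4 in upCIN85. In siCIN85 they were FBXL5, PCBP4, NFU1, HSPA9 and CISD2. The cause of these shifts in the numbers called was not tested. Signs turned for estimates near 0. Leaving out 1 library gave these ranges in upCIN85, each reaching the other sign: SLC40A1 -0.20 to 0.27, IREB2 -0.011 to 0.14, NCOA4 -0.17 to 0.011, AIFM2 -0.062 to 0.33 and SH3KBP1 -0.011 to 0.15. In siCIN85 it gave EPAS1 -0.040 to 0.27. For the difference of responses it gave TFRC -0.059 to 0.16 and NCOA4 -0.10 to 0.074, and NCOA4 was also at -0.0015 with the block in both experiments and -0.0014 with the restricted TMM. SLC40A1 gave no value with at least 10 counts in every library, and its 5 to 19 counts per library set its precision.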
